A study of Mus musculus with 12 samples.

Results

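The urea cycle and the neighbouring amino acid breakdown of the liver were followed here through 10 genes, which were chosen by name and all 10 of which were present in the deposited table of 50499 genes: Cps1, Otc, Ass1, Asl, Arg1 and Nags of the urea cycle, and Hal, Sds, Gls2 and Tat of periportal amino acid breakdown. All 10 passed the filter on low counts, among 11934 genes that did. RNA sequencing was done on whole livers of male C57Bl/6NCrl mice, wild type per the labels, which were put on their diet at 6 weeks of age, injected by tail vein after 12 weeks and sampled 12 weeks later. The 4 groups held 3 libraries each: Western siAATF (Western diet with sugar water, AAV8-TBG-siAATF), Western null (the same diet, AAV8-TBG-Null), chow siAATF (chow with normal water, AAV8-TBG-siAATF) and chow null (chow, AAV8-TBG-Null). All mice therefore carried an AAV8 vector, and TBG is a promoter active in hepatocytes, so other liver cells were not its target. The labels number the replicates without saying whether they were different animals, and a p-value below speaks only to the scatter among these libraries, which may be technical.

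Hepatocytes around the portal vein, the first to meet blood from the gut, take up amino acids, release their nitrogen as ammonia and turn it into urea. Cps1, with Nags supplying its activator N-acetylglutamate, captures ammonia as carbamoyl phosphate in the mitochondrion. Otc joins that to ornithine, Ass1 and Asl build argininosuccinate and split it into arginine, and Arg1 releases urea and returns ornithine. Gls2 frees ammonia from glutamine beside the cycle, Hal opens the breakdown of histidine, Sds that of serine, and Tat that of tyrosine. Glucagon and glucocorticoids raise many of these enzymes during fasting, and a reduced capacity for urea synthesis has been described in human fatty liver disease.

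The libraries held between 1646853 and 13469819 counts, of which the 18S ribosomal RNA gene took 0.871% to 50.8%. That share was over 25% in 4 libraries, chow null 1 and 2, chow siAATF 1 and Western siAATF 2. Levels are given as CPM (each count scaled by library size) on TMM library sizes, which are scaled so that most genes keep the same level. Aatf itself was between 27.0 and 28.2 CPM in Western siAATF, 21.1 and 30.0 in Western null, 24.6 and 40.5 in chow siAATF and 26.5 and 36.8 in chow null. It was thus not lower in the libraries labelled siAATF (log2 difference 0.06 ± 0.25 on Western diet and 0.11 ± 0.24 on chow, ± SE), and siAATF below is the label of a library, not a measured loss of Aatf. All 8 hepatocyte markers were detected in every group, with a summed level between 58147 and 119753 CPM over the 12 libraries.

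Each gene was counted over its whole span, introns included, on the GRCm39 build. The largest span was that of Cps1, at chr1:67151294-67270426 on the plus strand, and Hal lay at chr10:93324630-93352623, Gls2 at chr10:128030504-128045873 and Tat at chr8:110712710-110726436, all on the plus strand. Arg1 occupied chr10:24791105-24803368 on the minus strand. Reads that fall on overlapping genes could not be assigned to either with certainty, and 10400 of 10400 genes lying inside another gene were at 0. This bears most on Otc, at chrX:10118500-10187263 on the plus strand, since 81.6% of its span is overlapped by LOC118568439 on the other strand, and its level is therefore uncertain. Arg1 shared 39.0% of its span with Gm40616 and Nags 19.8% with Gm11586, while the other 7 shared 3.63% or less.

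Hal and Tat had the largest differences between diets among the 10 genes, and their promoters are shown for that reason. Promoter sequences were found in RefSeq for 5 of the 10 genes, on GRCm38.p6, an earlier build than that of the counts. Each runs from 250 bases before to 50 bases after the gene's start, 5′ to 3′ on the gene's own strand. Capitals mark matches to 5 motifs searched on both strands: the cAMP response element (CRE) core TGACG, the glucocorticoid receptor core TGTTCT, the C/EBP-type motif TTGCNNAA, the CCAAT box and the TATA box TATAAA. The Hal promoter is at chr10:93488518-93488817 and the Tat promoter at chr8:109990186-109990485.
Hal: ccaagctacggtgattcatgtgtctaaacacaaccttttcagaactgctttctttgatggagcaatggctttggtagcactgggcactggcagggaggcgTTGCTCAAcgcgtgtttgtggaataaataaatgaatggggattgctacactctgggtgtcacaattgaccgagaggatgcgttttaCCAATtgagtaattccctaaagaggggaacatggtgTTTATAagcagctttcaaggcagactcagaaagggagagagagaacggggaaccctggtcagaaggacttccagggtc
Tat: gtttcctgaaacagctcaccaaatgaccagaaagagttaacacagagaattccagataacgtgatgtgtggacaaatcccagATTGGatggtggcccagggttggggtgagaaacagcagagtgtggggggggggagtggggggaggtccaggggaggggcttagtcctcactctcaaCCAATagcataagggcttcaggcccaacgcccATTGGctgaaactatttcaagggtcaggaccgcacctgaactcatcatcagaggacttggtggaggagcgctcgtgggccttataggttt
The Hal window held a match to the C/EBP-type motif (TTGCTCAA) starting 150 bases before the start, a CCAAT box 64 bases before it and a TATA box, read on the minus strand as TTTATA, 28 bases before it. The Tat window held 3 CCAAT boxes, starting 168, 72 and 40 bases before the start, those at 168 and 40 on the minus strand as ATTGG. No 2 of these matches overlapped. Of 32851 promoters of the same length, 10.8% held the C/EBP-type motif, 37.4% a CCAAT box, 13.6% the TATA box, 20.8% the CRE core and 19.0% the glucocorticoid receptor core, so none of the matches is rare. Of the other windows, that of Nags held a CRE core, and those of Otc and Ass1 held none of the 5 motifs. A match describes these letters only, and nothing is drawn from a window without one.

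On Western diet, with the null vector in both groups, 3 of the 10 genes fell: Hal, Gls2 and Tat, all from the amino acid breakdown arm. Hal stood at 26.7% of its chow level, Tat at 44.8% and Gls2 at 54.3%. None of the 6 urea cycle genes passed the test, although all 10 estimates were below 0, as were 51.6% of those of all genes, and none of the 10 rose. Calls here and below come from the quasi-likelihood F test of edgeR, at an adjusted p under 0.05 (Benjamini-Hochberg, over all 11934 genes). By that test 13.2% of all genes were called, 6.44% higher and 6.77% lower, and 3 of 10 lower stands above the latter share. However, the 10 genes were chosen with earlier results of these data known. Setting them beside all genes, here and below, is therefore a description and no test of the set. In whole liver, fewer hepatocytes and less RNA of a gene per hepatocyte cannot be told apart.

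Hal, the histidine ammonia-lyase, had the largest diet difference of the 10 genes. Its level was 49.9, 137.3 and 90.2 CPM in Western null replicates 1, 2 and 3, against 298.8, 377.8 and 364.6 CPM in chow null. The highest Western null library was still far under the lowest chow null one. The log2 fold change was -1.90 ± 0.31 (SE), with an adjusted p of 0.000935 in edgeR. This call held in all 14 alternative settings, among them each fit without 1 library of either group.

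Tat, which starts tyrosine breakdown and is a textbook glucocorticoid-induced gene in rat liver, measured 383.1, 319.6 and 206.3 CPM in Western null and 398.9, 718.2 and 908.0 CPM in chow null. The groups did not overlap, but chow null 1 lay close to the highest Western null library. Its log2 fold change was -1.16 ± 0.35 (SE, adjusted p = 0.0390, edgeR), and this call was lost on leaving out chow null 2 or 3 or any Western null library, with adjusted p between 0.0618 and 0.174. Gls2, the liver-type glutaminase, measured 94.3, 116.5 and 98.3 CPM in Western null and 161.7, 197.1 and 211.2 CPM in chow null. All 3 Western null libraries were lower, with a log2 fold change of -0.88 ± 0.22 (SE, adjusted p = 0.0164, edgeR). The Gls2 call was lost without chow null 3, Western null 1 or Western null 3 (adjusted p between 0.0657 and 0.0828). These were also the only 3 of the 10 genes whose groups did not overlap in the lower direction, where 17.0% of all genes did so, and none was in the higher direction (17.7% of all genes).

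Sds, the serine dehydratase, could not be placed between the diets. It measured 52.3, 112.8 and 73.3 CPM in Western null, against 30.9, 150.2 and 159.5 CPM in chow null, where the highest library was 5.17 times the lowest. The log2 fold change was -0.50, with a 95% interval from -1.59 to 0.58.

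Among the urea cycle genes, Cps1 and Ass1 had the lowest estimates. Cps1, the entry enzyme, measured 2117.5, 3627.5 and 2961.2 CPM in Western null and 3600.1, 5786.5 and 5681.8 CPM in chow null, so the groups overlapped by 1 library on each side. Its log2 fold change was -0.79 ± 0.28 (SE, adjusted p = 0.0756, edgeR). It was called lower by DESeq2 (adjusted p = 0.0317), by limma-voom (0.0491) and when only these 2 groups were fitted (0.0422). Ass1, the argininosuccinate synthase, measured 817.6, 1207.6 and 1130.4 CPM in Western null and 1186.2, 1921.5 and 2093.0 CPM in chow null. Here too 1 chow null library, replicate 1, lay within the Western null range, and the log2 fold change was -0.72 ± 0.27 (SE, adjusted p = 0.0826, edgeR), called by DESeq2 (0.0394) and without chow null 1 (0.0400).

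The other 4 urea cycle genes had intervals that included 0. Asl, the argininosuccinate lyase, measured 235.5, 312.8 and 283.9 CPM in Western null and 260.1, 464.1 and 340.0 CPM in chow null (log2 fold change -0.35, 95% interval -0.87 to 0.16). Nags measured 35.5, 32.0 and 26.8 CPM in Western null and 29.8, 44.0 and 48.1 CPM in chow null (log2 fold change -0.38, interval -0.93 to 0.18). For both genes the Western null range overlapped that of chow null. Arg1, the liver arginase, had 430.5, 658.3 and 605.5 CPM in Western null and 495.7, 710.9 and 594.9 CPM in chow null, the smallest difference of the 10 genes (log2 fold change -0.09, interval -0.61 to 0.44). Otc, the ornithine transcarbamylase, had 25.2, 35.1 and 26.6 CPM in Western null and 27.3, 28.2 and 38.9 CPM in chow null (log2 fold change -0.13, interval -0.72 to 0.46). An interval that includes 0 does not show that these levels were alike. The median log2 fold change over the 10 genes was -0.61, beside -0.03 over all genes tested.

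**Figure D1:**
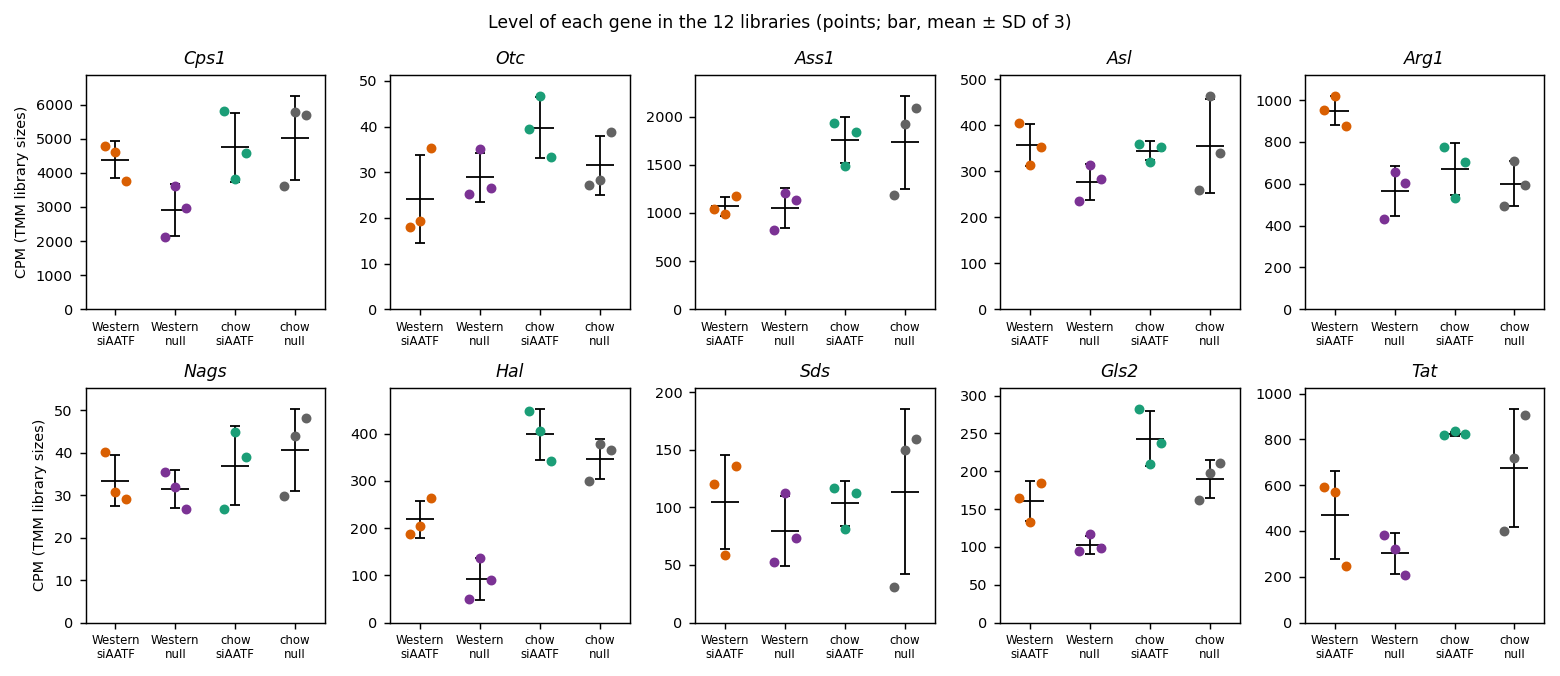
Level of each gene (y axis, CPM on TMM library sizes, starting at 0) in the 12 libraries, by group (x axis: Western siAATF, Western null, chow siAATF, chow null). Points are libraries in the order of replicates 1 to 3 and bars are the mean ± SD of 3. In Hal, Gls2 and Tat the 3 Western null points lie below all 3 chow null points, and in Arg1 the 3 Western siAATF points lie above the other 9.

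Several values of the tissue moved with diet in the same libraries. The summed level of 8 hepatocyte markers (Alb, Apoa1 and others) was 68225 to 77516 CPM in Western null, against 89724 to 119753 CPM in chow null. Of these 8 genes, 2 fell, Fga and Fgb of the fibrinogen complex (log2 fold changes -1.64 ± 0.32 and -1.72 ± 0.39, SE), and the median log2 fold change of the 8 was -0.50. Macrophage markers rose for 5 of 10 genes tested, with a summed level of 441.1 to 726.5 CPM in Western null and 182.5 to 353.0 CPM in chow null. Stellate cell markers rose for 4 of 7 tested, with sums of 1085 to 1475 CPM in Western null and 238.7 to 498.6 CPM in chow null, and Lrat of that list was at 0 in every library. Endothelial markers rose for 3 of 5 tested, with sums of 225.5 to 285.9 CPM in Western null and 144.6 to 182.1 CPM in chow null. Cholangiocyte markers also rose for 3 of 5 tested, with sums of 100.2 to 224.6 CPM in Western null and 22.1 to 32.7 CPM in chow null. The part of these marker changes in the levels of the 10 genes was not tested.

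Set against the 8 hepatocyte markers in the same library, Hal still separated the diets. It had 0.703 to 2.01 counts per 1000 counts of those markers in Western null and 3.15 to 4.02 in chow null. Gls2 and Tat no longer separated them. Gls2 ranged from 1.27 to 1.71 per 1000 in Western null and from 1.65 to 2.33 in chow null, and Tat from 2.66 to 5.40 in Western null and from 4.45 upward in chow null. The ratio for Cps1, 29.9 to 53.2 in Western null and 40.1 to 62.7 in chow null, overlapped too. These ratios are descriptions, and they depend on markers of which 2 themselves fell. Alb, the highest of the 8, averaged 49521 CPM in chow null and 31493 CPM in Western null (log2 fold change -0.65 ± 0.26, not called). Apob and Trf had estimates above 0 (0.02 ± 0.34 and 0.30 ± 0.30, SE), and those of the other markers were below. A ratio to this sum therefore depends largely on Alb and is not a correction for hepatocyte number.

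Other markers of both hepatocyte zones had medians below 0. The summed periportal level was 12492 to 14367 CPM in Western null and 12684 to 16515 CPM in chow null, which overlapped. The summed pericentral level was 7511 to 8649 CPM in Western null and 8931 to 10933 CPM in chow null, without overlap. Of 13 periportal markers, 3 fell (G6pc, log2 fold change -1.78 ± 0.37; Pigr, -1.14 ± 0.30; Pck1, -0.96 ± 0.31) and Hsd17b13 rose (0.89 ± 0.28, SE), with a median of -0.33. Of 12 pericentral markers, from the opposite end of the lobule, 3 fell (Cyp1a2, -1.63 ± 0.44; Lgr5, -1.48 ± 0.43; Axin2, -0.93 ± 0.28) and none rose, with a median of -0.32. The clock genes moved with diet too, 5 of 11 higher and 3 lower, among them Arntl, a core activator (-3.11 ± 0.44), and the repressor Per3 (2.58 ± 0.40). Time of sampling is not given in the labels, and the part of the clock difference in the results was not tested.

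Counting both directions together, the wider amino acid pathways were called about as often as all genes. Their calls were mostly lower, while those of all genes were split nearly evenly. Over 8 lists of related enzymes and transporters, 80 of 87 genes were tested, of which 2 rose and 11 fell in Western null against chow null, which is 16.2% called beside 13.2% of all genes (6.44% higher and 6.77% lower). Their median log2 fold change was -0.20, against -0.61 for the 10 genes above. In histidine breakdown beside Hal, 2 of 7 genes fell: Amdhd1, a later step of the same pathway (-0.91 ± 0.24), and Hdc, which turns histidine into histamine instead (-1.36 ± 0.40). The step directly after Hal, Uroc1, and the last one, Ftcd, had -0.22 ± 0.26 and -0.33 ± 0.34 and were not called; these were named after their values were seen.

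Of 13 partners of the urea cycle, 3 fell and 1 rose. Got1, the cytosolic aspartate aminotransferase, fell (-1.60 ± 0.36), as did the cationic amino acid transporter Slc7a2 (-0.79 ± 0.24) and the glutamine transporter Slc38a3 (-0.85 ± 0.27), while the mitochondrial alanine aminotransferase Gpt2 rose (1.45 ± 0.27). In methionine and cysteine handling 3 of 11 fell: Cbs (-1.07 ± 0.26) and Cth (-0.70 ± 0.22), the enzymes of transsulfuration, and Gnmt, the glycine methyltransferase (-1.13 ± 0.33). The serine, glycine and threonine list had 1 of 10 lower, Agxt, the peroxisomal glyoxylate aminotransferase (-1.27 ± 0.30), and the tryptophan list 1 of 7, Kynu, the kynureninase (-1.88 ± 0.35). Proline, ornithine and glutamine handling had the transporter Slc38a2 lower (-1.01 ± 0.24) and the transporter Slc1a5 higher (1.94 ± 0.61) of 9. No gene was called of 7 in phenylalanine and tyrosine breakdown, the pathway Tat starts, or of 16 in branched chain and lysine breakdown.

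**Figure D2:**
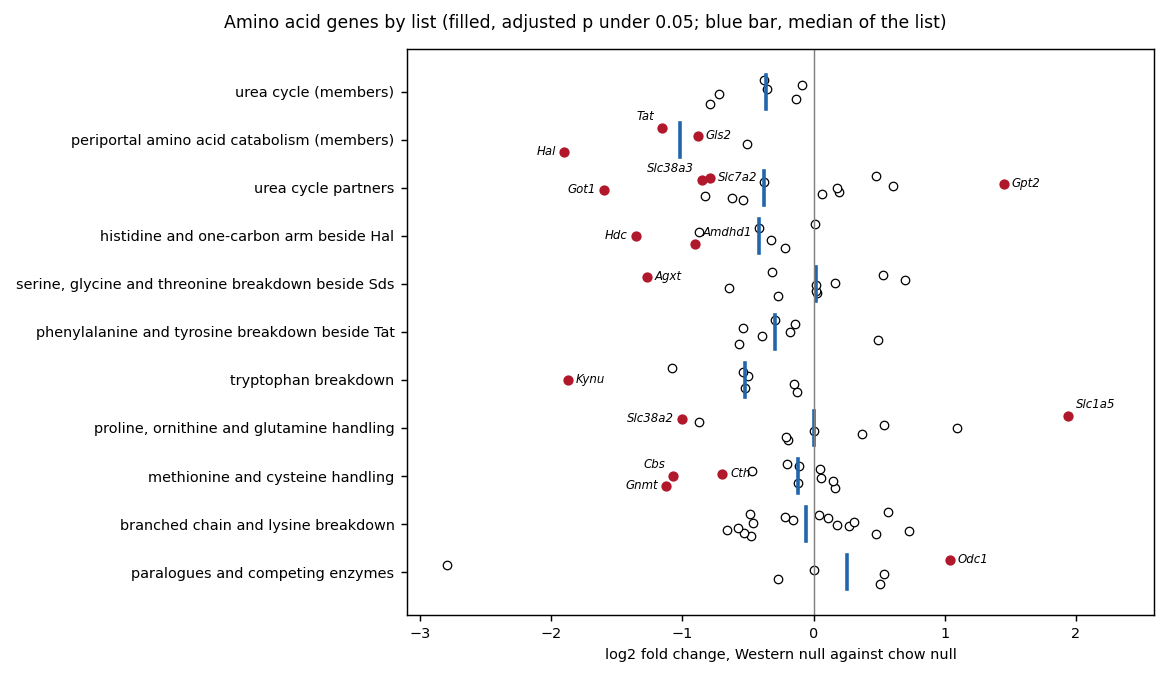
Log2 fold change of Western null against chow null (x axis) for each tested gene (points), in the 2 lists of the 10 genes and in lists of related enzymes and transporters (y axis). Filled points passed an adjusted p under 0.05, and blue bars are the median of a list; filled points lie mostly left of 0, with Gpt2, Slc1a5 and Odc1 on the right.

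In the libraries labelled Western siAATF, set against Western null, none of the 10 genes passed the test, and Hal and Arg1 had the largest estimates. Over all genes 104 passed, which is 0.871%, with 0.310% higher and 0.561% lower. Nonetheless 9 of the 10 estimates were above 0, with a median log2 fold change of 0.50 beside 0.06 over all genes, and 3 genes (Hal, Arg1 and Gls2) had an unadjusted p under 0.05 in edgeR. Over all 11934 genes, 44.6% of the estimates were below 0 and 1271 genes had an unadjusted p under 0.05. In 5 of the 10 genes, Cps1, Asl, Arg1, Hal and Gls2, all 3 Western siAATF libraries lay above all 3 Western null ones, and in none all lay below, where 7.69% and 7.87% of all genes did so. The 3 Western null libraries are the same that stood low against chow null in the comparison above, so these directions are not separate evidence.

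Hal measured 188.4, 203.8 and 263.6 CPM in Western siAATF, against 49.9, 137.3 and 90.2 CPM in Western null. Every Western siAATF library was higher, and the log2 fold change was 1.24 ± 0.30 (SE, adjusted p = 0.0718, edgeR). The call hung on the setting, since Hal was called higher by DESeq2 (adjusted p = 0.00726), by limma-voom (0.0465), with no low-count filter (0.00249) and without Western null 2 (0.0489). Per 1000 counts of hepatocyte markers Hal had 2.26 to 4.53 in Western siAATF and 0.703 to 2.01 in Western null, again with no overlap.

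Arg1, which makes urea from arginine, measured 951.8, 1019.4 and 878.5 CPM in Western siAATF and 430.5, 658.3 and 605.5 CPM in Western null. The lowest Western siAATF library, at 878.5 CPM, was above the highest of the other 9 libraries, at 775.5 CPM, and Arg1 was the only one of the 10 genes with this pattern. The share of all genes with this pattern was not counted, so it is not read as a trait of Arg1. Its log2 fold change was 0.75 ± 0.25 (SE) with a 95% interval from 0.22 to 1.28, an unadjusted p of 0.00805 and an adjusted p of 0.232 in edgeR. Relative to hepatocyte markers the Western siAATF libraries again lay above the other 9, with 11.3 to 15.1 per 1000 in Western siAATF, 6.07 to 9.65 in Western null, 5.70 to 8.03 in chow siAATF and 5.52 to 6.57 in chow null.

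Gls2 measured 164.5, 132.8 and 184.4 CPM in Western siAATF and 94.3, 116.5 and 98.3 CPM in Western null (log2 fold change 0.64 ± 0.22, SE, adjusted p = 0.266, edgeR). Per 1000 hepatocyte marker counts its ranges overlapped, 1.47 to 3.17 in Western siAATF and 1.27 to 1.71 in Western null. Cps1 measured 4798.7, 4598.5 and 3758.8 CPM in Western siAATF and 2117.5, 3627.5 and 2961.2 CPM in Western null, with all Western siAATF libraries higher and an interval of the log2 fold change from -0.0035 to 1.19. Per 1000 hepatocyte marker counts Cps1 overlapped too, at 51.0 to 64.6 in Western siAATF and 29.9 to 53.2 in Western null. Asl measured 405.6, 313.4 and 353.9 CPM in Western siAATF and 235.5, 312.8 and 283.9 CPM in Western null, where its lowest Western siAATF library barely cleared the highest Western null one (log2 fold change 0.37 ± 0.24, SE). Its ratio to the markers overlapped, at 3.47 to 6.09 per 1000 in Western siAATF and 3.32 to 4.58 in Western null.

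Tat was uneven within Western siAATF, at 592.2, 569.9 and 247.8 CPM, against 383.1, 319.6 and 206.3 CPM in Western null (log2 fold change 0.64 ± 0.35, SE). Replicate 3 lay inside the Western null range and the other 2 were above it. Sds was as uneven, at 120.1, 58.8 and 136.0 CPM in Western siAATF and 52.3, 112.8 and 73.3 CPM in Western null (0.40 ± 0.50). Ass1 lay within the range of 817.6 to 1207.6 CPM of Western null, at 1038.2, 985.8 and 1180.5 CPM in Western siAATF (log2 fold change 0.02, interval -0.54 to 0.58). Nags had 40.2, 30.9 and 29.0 CPM in Western siAATF and 35.5, 32.0 and 26.8 CPM in Western null (0.10 ± 0.26). Otc, with its uncertain count, was the only estimate below 0, at 17.9, 19.3 and 35.2 CPM in Western siAATF and 25.2, 35.1 and 26.6 CPM in Western null (-0.29 ± 0.29).

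None of the 80 tested genes of the 8 amino acid lists passed in this comparison. Beside these values, the summed hepatocyte markers ranged from 58147 to 90198 CPM in Western siAATF and from 68225 to 77516 CPM in Western null, and 1 of the 8, Fga, rose (1.44 ± 0.32). Of 10 macrophage markers 2 fell, Gpnmb (-6.04 ± 0.50) and Trem2 (-2.84 ± 0.50), with summed levels of 239.9 to 716.7 CPM in Western siAATF and 441.1 to 726.5 CPM in Western null. Of 5 cholangiocyte markers tested Spp1 fell (-2.64 ± 0.45), with sums of 24.6 to 44.5 CPM in Western siAATF and 100.2 to 224.6 CPM in Western null. The stellate sums were 330.9 to 883.8 CPM in Western siAATF and 1085 to 1475 CPM in Western null, with none of 7 genes called. Their part in the levels of the 10 genes was not tested.

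**Figure D3:**
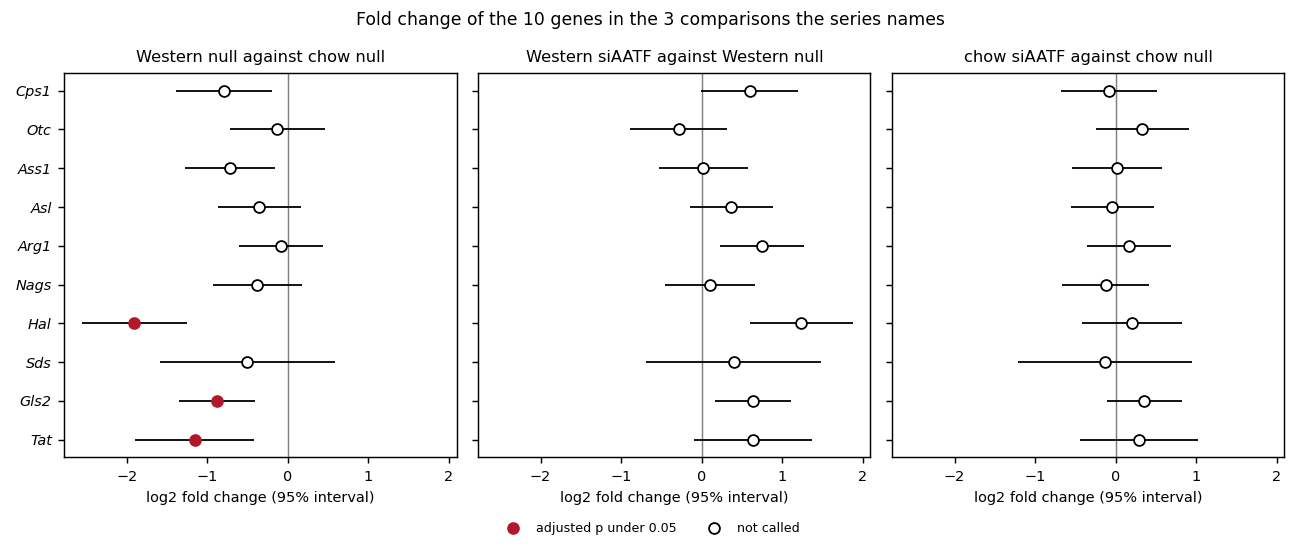
Log2 fold change of each gene (x axis, point with its 95% interval from edgeR) in the 3 comparisons named by the series (panels), with genes on the y axis. Filled points passed an adjusted p under 0.05: Hal, Gls2 and Tat are filled for Western null against chow null, and none is filled for the other 2.

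On chow, no difference of the libraries labelled siAATF from null was detected in any of the 10 genes. The estimates ran from -0.13 to 0.36 on the log2 scale, with 0 called by edgeR and 0 at an unadjusted p under 0.05. Of all 11934 genes 0 were called by edgeR (0%), while 285 had an unadjusted p under 0.05, and limma-voom called 0, DESeq2 1 and edgeR with no low-count filter 33. Groups that did not overlap were found for none of the 10 genes, where 4.25% of all genes were higher and 4.32% lower in every chow siAATF library. Gls2 had the largest estimate, with 282.0, 210.0 and 237.2 CPM in chow siAATF against 161.7, 197.1 and 211.2 CPM in chow null (0.36, interval -0.11 to 0.82). Otc followed, with 39.4, 46.7 and 33.2 CPM in chow siAATF against 27.3, 28.2 and 38.9 CPM in chow null (0.33, interval -0.25 to 0.91).

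Relative to the mean, the spread was wider in chow null than in chow siAATF for Tat, Sds, Asl and Ass1, and slightly so for Cps1 and Otc. It was not wider for Hal, Gls2, Arg1 and Nags. Tat was even across chow siAATF, at 817.3, 834.9 and 822.1 CPM, while chow null ran from 398.9 to 908.0 CPM (log2 fold change 0.29 ± 0.35, SE). Hal had 447.7, 406.0 and 341.3 CPM in chow siAATF and 298.8, 377.8 and 364.6 CPM in chow null (0.20 ± 0.29). Arg1 had 775.5, 534.3 and 706.1 CPM in chow siAATF and 495.7, 710.9 and 594.9 CPM in chow null (0.16 ± 0.25). The 4 genes with estimates below 0 were Sds, Nags, Cps1 and Asl, all with intervals that included 0. Sds had 116.7, 81.0 and 112.7 CPM in chow siAATF, all inside the range of 30.9 to 159.5 CPM of chow null. Nags had 26.7, 45.0 and 39.1 CPM in chow siAATF, against 29.8, 44.0 and 48.1 CPM in chow null. Cps1 had 5823.9, 3825.9 and 4592.9 CPM and Asl 358.8, 320.8 and 353.9 CPM in chow siAATF, and both overlapped chow null. Ass1, at 1935.1, 1482.1 and 1845.2 CPM in chow siAATF, had an estimate of 0.02 ± 0.26.

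The diet contrast within siAATF, Western siAATF against chow siAATF, gave no call among the 10 genes, with 177 of all genes called (1.48%, 0.763% higher and 0.721% lower). In 4 genes every Western siAATF library was lower, Ass1, Hal, Gls2 and Tat, where 8.36% of all genes did so, and in Arg1 every one was higher, where 9.24% did. Hal had a log2 fold change of -0.87 ± 0.30 (SE, adjusted p = 0.165, edgeR) and Tat -0.81 ± 0.35 (adjusted p = 0.279). Ass1 had -0.72 ± 0.27 and Gls2 -0.60 ± 0.22 (adjusted p = 0.200 for each), and Otc, whose groups overlapped, -0.75 ± 0.28 (0.203). For Arg1 the value was 0.50 ± 0.25 (adjusted p = 0.353). Of the 80 tested genes of the amino acid lists 1 was lower, Gldc of the glycine cleavage system (-1.18 ± 0.25, adjusted p = 0.0269).

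The test of whether the vector difference itself differed between diets, the interaction, called none of the 10 genes and 23 of all genes (0.193%, 0.101% higher and 0.0922% lower). Hal had the largest estimate, 1.04 ± 0.42 on the log2 scale with an unadjusted p of 0.0246 and an adjusted p of 0.464 in edgeR. The others ran from -0.62 for Otc to 0.68 for Cps1, with intervals that included 0. A larger vector difference on Western diet was therefore not shown for any of the 10 genes.

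Over the 4 groups, Hal averaged 219 ± 39.7 CPM in Western siAATF, 92.5 ± 43.8 in Western null, 398 ± 53.6 in chow siAATF and 347 ± 42.3 in chow null (SD, n = 3 each). Its order from high to low was chow siAATF, chow null, Western siAATF and Western null, in which the first pair of neighbours overlapped and the other 2 pairs did not. Gls2 had the same order, with 161 ± 26.1 CPM in Western siAATF, 103 ± 11.8 in Western null, 243 ± 36.4 in chow siAATF and 190 ± 25.5 in chow null, and of the neighbours only Western siAATF and Western null lay clear of each other. Arg1 had another, with 950 ± 70.5 CPM in Western siAATF above 565 ± 119 in Western null, 672 ± 124 in chow siAATF and 601 ± 108 in chow null, of which the last 3 overlapped. Cps1 averaged 4385 ± 552 CPM in Western siAATF, 2902 ± 757 in Western null, 4748 ± 1008 in chow siAATF and 5023 ± 1233 in chow null, where again only Western siAATF and Western null, of the neighbours in that order, were clear of each other.

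**Figure D4:**
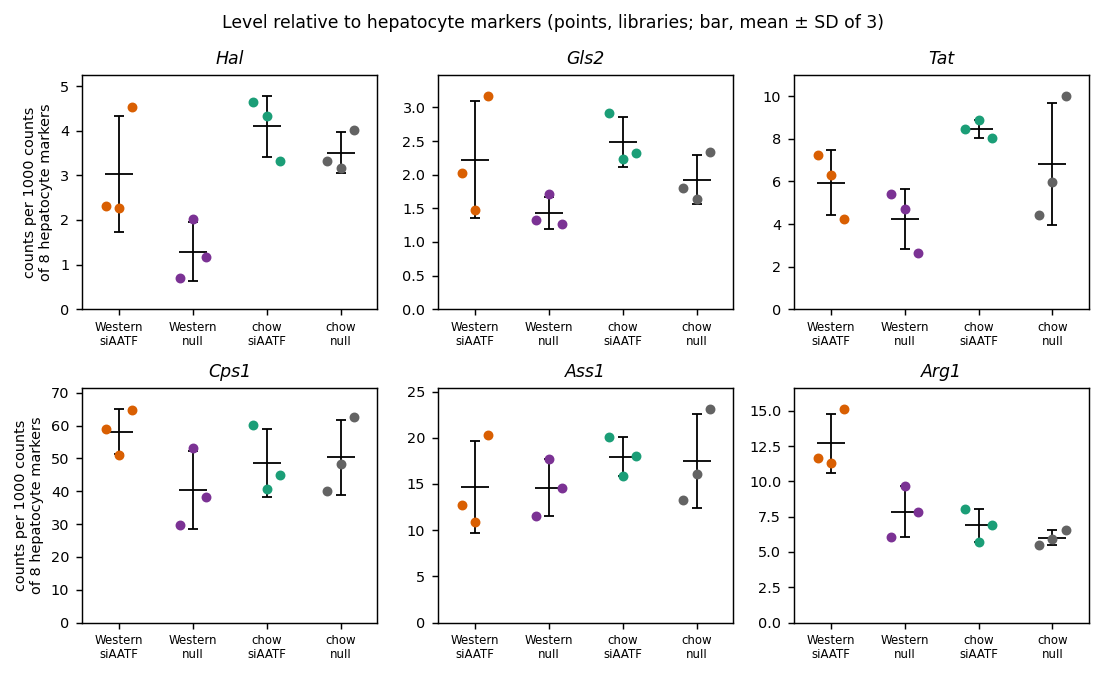
Counts of 6 of the 10 genes per 1000 counts of 8 hepatocyte markers in the same library (y axis, starting at 0), by group (x axis). Points are libraries and bars the mean ± SD of 3: Hal in Western null, at 0.703 to 2.01, lies below all other groups, and Arg1 in Western siAATF, at 11.3 to 15.1, above them.

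Across the 12 libraries, the 10 genes were correlated to different degrees. Over 45 pairs, Pearson's r between log2 CPM had a median of 0.49 and ran from -0.35 (Otc and Arg1) to 0.93 (Hal and Gls2). Cps1 and Hal had 0.83, Ass1 and Gls2 0.82, and Cps1 and Asl 0.82. These are descriptions without a test, and the points share library, depth and group. With the group means removed, the median was 0.51, and Cps1 and Arg1, at 0.58 before, had 0.92, so their libraries moved together inside groups although their group means differed. Hal and Tat went from 0.67 to -0.24.

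The genes most like the mean of the 10 (Pearson's r between log2 CPM and the mean of their z scores, n = 12 libraries) included other enzymes of amino acid and one-carbon metabolism. Gnmt came first with 0.94, followed by Aldh1l1, the folate dehydrogenase, with 0.92 and Got1 with 0.91. Kif13b, Cyp2d13, Sec16b, Zpr1 and Srrm2 completed the 8, down to 0.89. Gnmt averaged 855 CPM in Western siAATF, 503 in Western null, 1045 in chow siAATF and 1100 in chow null. The most opposed were Pak1 (-0.91), Itfg1 (-0.90), Tmem43, Cap1, D130040H23Rik, Arl6ip5, Ostm1 and Ghitm (-0.87). Library Western null 1 had the lowest mean z score of the 12, -1.34, and chow null 1 the lowest of the 6 chow libraries, -0.67, the other 5 lying between 0.41 and 0.84.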

How the data were processed

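RNA was sequenced from livers in 12 libraries. The deposited table holds whole-number counts of reads per gene with each gene's coordinates. The submitters' processing notes name STAR 2.7.11, featureCounts 2.0.1, R 4.3.2, DESeq2 1.42.0 and the GRCm39 build, and the strand setting is not given in the sources used here. Each gene's length equals its span in the authors' table, so introns were counted, and the other numeric columns (start, end, length) were used for positions only.

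From the deposited counts, edgeR 4.0.16 (R 4.3.3) fitted a mean per group over all 12 libraries (filterByExpr by group, TMM, glmQLFit robust, glmQLFTest, 8 residual degrees of freedom); p-values were adjusted by Benjamini-Hochberg over 11934 genes. SE is the log2 fold change divided by the square root of F, and 95% intervals use the test's own degrees of freedom. The fit was tested on simulated data. No 2 replicates of a group agreed within sampling noise: the lowest chi-square of a pair over its degrees of freedom was 10.3. Alternatives were RLE size factors, no low-count filter, DESeq2, limma-voom, a replicate block, removal of the 18S gene, leaving out libraries with over 25% 18S, only the groups compared, and each library left out.

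The 10 genes and the lists were chosen with earlier results of these data known. All 10 were to be named, and from each list at most 4 called genes of smallest adjusted p in a comparison, the paralogues Arg2, Sdsl, Glul, Oat and Asns whatever their values (1 more of that list is not reported here), and the 8 genes most and least like the mean of the 10. Counting intervals were not needed, since no share of a single library is compared; the depth sets the precision, and 3 counts equal 0.185 to 1.69 CPM by library.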

Additional observations from a re-analysis of the deposited data

How the results depend on the processing

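Of 750 values for 50 results under alternatives, 684 kept their direction and side of the threshold, 9 lost a call, 11 gained one and 46 changed sign; the causes were not tested beyond the fewer libraries or genes some settings hold. Of the 10 genes, Western null against chow null had 3 called, 5 by DESeq2, and 1 to 4 with 1 library left out. Western siAATF against Western null had 0, 1 with no low-count filter, 1 by DESeq2 and 1 by limma-voom (Hal each time), and 0 to 1 with 1 library left out. Western siAATF against chow siAATF had 0, 1 with no filter (Hal), and 0 to 1 with 1 library left out (Otc, without Western siAATF 3). Over all genes, no filter gave 572 calls for Western siAATF against Western null, 33 for chow siAATF against chow null, 836 for Western siAATF against chow siAATF and 331 for the interaction, and DESeq2 gave 285 for Western siAATF against Western null, 1 for chow siAATF against chow null, 513 for Western siAATF against chow siAATF and 124 for the interaction. These DESeq2 counts all exceed those of edgeR. The DESeq2 count over all genes for Western null against chow null is not given here. Without that share, its 5 of the 10 genes there are not read as a result about those genes. Limma-voom gave 9 for the interaction. Without the 4 libraries over 25% 18S, which leaves chow null with 1 library assumed to vary like the other groups, counts were 1031 for Western null against chow null, 103 for Western siAATF against chow siAATF and 3 for the interaction, while Hal, Gls2 and Tat stayed called lower in Western null. With only the groups compared, 53 genes were called for Western siAATF against Western null and 17 for Western siAATF against chow siAATF. Leaving out 1 library gave 658 to 1817 genes for Western null against chow null, 26 to 413 for Western siAATF against Western null, 34 to 737 for Western siAATF against chow siAATF and 2 to 295 for the interaction.

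Replicate numbers did not pair the libraries (1 of 18 same-numbered pairs had a correlation of deviations over 0.1, from -0.38 to 0.26). With the replicate block, 64 genes were called for Western siAATF against Western null, 71 for Western siAATF against chow siAATF and 14 for the interaction, Tat was no longer called in Western null against chow null (adjusted p = 0.0592, edgeR), and estimates near 0 turned for Sds in chow siAATF against chow null (0.011) and for Ass1 in the interaction (-0.018).

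All other changes of sign were in uncalled estimates. In chow siAATF against chow null, Sds was 0.21 by limma-voom, and without the 18S-rich libraries Ass1 was -0.30, Asl 0.019 and Tat -0.10. In Western siAATF against chow siAATF, Sds was -0.029 with no filter and -0.060 by limma-voom, and Cps1 0.028 without the 18S-rich libraries. Ass1 in the interaction was -0.0038 with RLE, -0.024 with no filter, -0.0042 by DESeq2, -0.0063 by limma-voom and -0.011 without the 18S gene. With 1 library left out, log2 fold changes ran as follows. In Western null against chow null, Arg1 ran from -0.21 to 0.086 and Otc from -0.27 to 0.053. In Western siAATF against Western null, Ass1 ran from -0.15 to 0.11 and Nags from -0.053 to 0.18. In chow siAATF against chow null, Cps1 ran from -0.27 to 0.071, Ass1 from -0.19 to 0.19, Asl from -0.22 to 0.20, Nags from -0.31 to 0.059 and Sds from -0.58 to 0.23. In Western siAATF against chow siAATF, Cps1 ran from -0.27 to 0.053, Asl from -0.052 to 0.13, Nags from -0.34 to 0.0017 and Sds from -0.25 to 0.30. Ass1 in the interaction ran from -0.19 to 0.21. Depth limits Otc and Nags most among the 10 genes, at 17.9 to 48.1 CPM in the 12 libraries. Otc, with 81.6% of its span overlapped by another gene, may also be undercounted. Its CPM is therefore no measure of how strongly liver expresses it.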

Other observations

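The paralogues of the 10 genes and the enzymes that compete for their substrates gave 1 call of 6 tested in Western null against chow null, and it was in the opposite direction to Hal, Gls2 and Tat. Odc1, the ornithine decarboxylase that leads ornithine to polyamines, rose (log2 fold change 1.04 ± 0.30, SE, adjusted p = 0.0309, edgeR), averaging 38.9 ± 2.13 CPM in Western null and 18.9 ± 5.56 CPM in chow null (SD, n = 3 each). Glul, the pericentral glutamine synthetase, averaged 1273 ± 209 CPM in Western null and 876 ± 144 CPM in chow null (0.54 ± 0.28, not called). Oat, which turns ornithine into glutamate semialdehyde, averaged 694 ± 115 CPM in Western null and 691 ± 134 CPM in chow null (0.01 ± 0.26). Sdsl, the relative of Sds, had -0.27 ± 0.40 and was not called. Asns, the asparagine synthetase, averaged 1.17 ± 1.04 CPM in Western null and 8.0 ± 8.55 CPM in chow null, a spread too wide for a call (-2.80 ± 1.25). Arg2, the mitochondrial arginase, and Nos2, which also uses arginine, did not pass the low-count filter.

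Of 17 hormone-linked and hepatocyte regulators, 1 rose and 1 fell in Western null against chow null. Fkbp5, a glucocorticoid-induced gene, rose (1.53 ± 0.41), averaging 84.4 ± 9.79 CPM in Western null and 29.3 ± 0.794 CPM in chow null. Tat, also named above as glucocorticoid-induced, fell in the same comparison, and the part of glucocorticoids in either level was not tested. Hnf4a, a transcription factor of hepatocytes, fell (-0.77 ± 0.24), averaging 384 ± 41.4 CPM in Western null and 655 ± 126 CPM in chow null. The glucagon receptor Gcgr, the glucocorticoid receptor Nr3c1 and Tsc22d3 had 0.08 ± 0.29, -0.69 ± 0.28 and -0.08 ± 0.48 and were not called. They were named after their values were seen. In gluconeogenesis, the pathway that uses the carbon of these amino acids, 3 of 6 genes fell, G6pc, Got1 and Pck1, and Pcx, the pyruvate carboxylase, rose (1.08 ± 0.29). None of the 17 regulators, of the 6 gluconeogenesis genes or of the 6 paralogues tested was called in Western siAATF against Western null.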
